A study of Mus musculus with 60 samples.

Results

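The 4 heart libraries were set against the 4 kidney libraries of a survey of 15 mouse tissues, 8 of its 60 libraries. Both groups came from female C57BL6/J mice of 6 weeks that had been perfused through the heart with PBS and EDTA under anaesthesia. No treatment or genetic change is described for either group, and both tissues were kept in RNAlater before freezing and RNA extraction. Libraries were chosen by their tissue label, and the pair was chosen because these organs had the highest shares of mitochondrial RNA among the tissues. Oligo(dT) primers that carry a library barcode started the cDNA on fragmented total RNA, which places reads mostly just before a poly(A) tail, and no molecular identifiers are described. The labels name 4 replicates and do not say which part of each organ was taken. The p-values set the difference between organs against the spread between libraries of an organ, estimated with help from other genes. Counting intervals and limits cover counting error only.

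The heart works without pause and covers its demand for ATP mainly by oxidising fatty acids in densely packed mitochondria. Its muscle cells hold sarcomeres, the repeating units of myosin and actin filaments, which calcium released from the sarcoplasmic reticulum sets in motion. The kidney spends most of its ATP on the sodium pump of the tubule, which drives the return of sodium, phosphate, glucose and amino acids from the filtrate to the blood. Its nephron runs from the glomerulus, with its podocytes, through the proximal tubule, the thick ascending limb and the distal convoluted tubule to the collecting duct, where principal and intercalated cells handle water, sodium and acid. Several enzymes of energy metabolism exist as a muscle form and a more general form, encoded by separate genes.

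Library totals ran from 4260194 to 4827656 counts in heart and from 3484482 to 4032245 in kidney. Levels are given in CPM, counts scaled to library depth, here the nuclear protein-coding counts after TMM scaling, for each library or as mean ± SD (n = 4 per organ), and log2 fold changes are heart over kidney ± SE. Spearman correlations of levels across genes, which are not independent replicates, were 0.975 to 0.979 between heart libraries, 0.977 to 0.983 between kidney libraries and 0.543 to 0.553 between the organs. The heart marker Myh6, the main myosin heavy chain of the adult mouse heart (ENSMUSG00000040752, chromosome 14, 54941921 to 54966927 in mm10), had 12844, 12696, 12655 and 13112 CPM in heart and 9.06, 8.47, 4.45 and 8.31 CPM in kidney. The kidney marker Slc34a1, the sodium-phosphate cotransporter of the proximal tubule (ENSMUSG00000021490, chromosome 13, 55398187 to 55415592), had 8.14, 6.05, 3.33 and 6.10 CPM in heart and 3790.1, 3759, 3704 and 3604 CPM in kidney. Both markers put every library with its label.

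Kidney replicate 4 stood apart from the other kidney libraries by genes of the adrenal gland, the neighbouring organ. The 6 adrenal cortex markers, among them the steroid enzymes Cyp11b1, Cyp11a1, Cyp21a1 and Hsd3b1, summed to 14, 30, 80 and 1478 counts in kidney replicates 1 to 4. Cyp11b1, which completes corticosterone synthesis, had 154 counts in kidney replicate 4 and 0 to 6 in the others. The 5 adrenal medulla markers summed to 2, 1, 0 and 162 counts in the kidney libraries in the same order. Heart replicate 1 stood apart from the other hearts by low counts of atrial genes, a set noticed after their values were seen. Myl7, the atrial myosin light chain, had 37.4 CPM in heart replicate 1 and 598 to 1391 CPM in the other hearts. Sln, sarcolipin, an inhibitor of the calcium pump in atria, had 19.5 CPM there and 258 to 613 CPM in the others. The same library held the most globin RNA, with 3185, 1272, 1099 and 1654 counts over the 6 red cell genes in heart replicates 1 to 4. For Myl7, Sln, Nppa, Hbb-bs, Hba-a1 and Star, log2 fold changes with and without the library that stood apart are given below.

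Mitochondrially encoded RNA, which chose the pair and is described without a test, made up 55.1% of counts in heart (54.1% to 56.1%) and 37.2% in kidney (36.01% to 38.1%). Liver followed with 28.01%, and the 52 libraries of the other 13 tissues ran from 1.89% to 29.7%. Nuclear protein-coding genes were left with 43.4% ± 0.825 of heart counts and 60.3% ± 1.00 of kidney counts, which is why they were rescaled alone. Per nuclear protein-coding count, there were 0.357 ± 0.0262 mitochondrial protein-coding counts in heart and 0.147 ± 0.00991 in kidney.

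**Figure D1:**
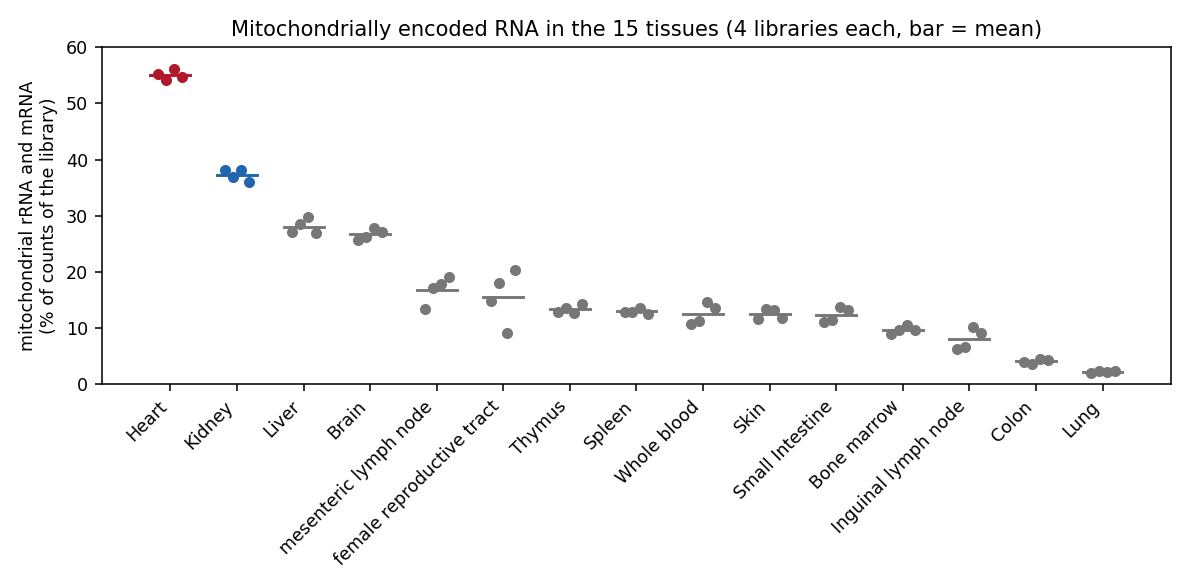
Share of mitochondrial rRNA and mRNA in the counts of each library (vertical axis, percent) for the 15 tissues (horizontal axis). The 4 heart libraries lie between 54.1% and 56.1%, the kidney libraries between 36.01% and 38.1%, and liver, the next tissue, has a mean of 28.01%.

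On the nuclear scale the mitochondrial transcripts differed by log2 ratios of the means of 1.01 to 1.86. Mt-Co1, the catalytic subunit of cytochrome oxidase, had 28323 ± 1392 CPM in heart and 7809.8 ± 493 CPM in kidney. The log2 ratios of mt-Nd1 and mt-Nd2, subunits of complex I, were 1.69 and 1.70, that of mt-Cytb, cytochrome b of complex III, was 1.47, and that of mt-Nd3 was 1.26. The small ribosomal RNA mt-Rnr1 had the lowest ratio, and the large ribosomal RNA mt-Rnr2 had 1.48. Mt-Nd5 and mt-Nd6 lie on opposite strands over a shared stretch, and since the sources used here do not state how the counting treated strand, their reads cannot be told apart. Mt-Co2, mt-Co3, mt-Atp6, mt-Atp8 and mt-Nd4l had at most 2 counts over the 4 libraries of an organ, so no level is given for them. The shares of mitochondrial RNA and the counts per nuclear count above hold almost nothing from these genes.

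Of 11470 nuclear protein-coding genes tested, 1900 were called higher in heart (16.6%) and 2566 lower (22.4%), at an adjusted p below 0.05 in edgeR's quasi-likelihood test and a change of more than 1 on the log2 scale. The median log2 fold change of all tested genes was -0.05. Scaling by the totals of nuclear protein-coding counts in place of TMM moved this median to -0.40 and the calls to 1393 higher and 3355 lower, so that 29.3% of the calls were higher, against 42.5% with TMM. The 10 most abundant genes took 14.1% of nuclear protein-coding counts in heart and 8.39% in kidney.

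The leading heart genes, those with the largest change among genes of at least 100 CPM, were genes of heart muscle. Tcap, telethonin, which caps titin at the Z-disc (chromosome 11, 98383811 to 98384953), had 2248, 2210.2, 2415 and 2434 CPM in heart and 0.377, 1.54, 0 and 0.416 CPM in kidney. Its log2 fold change was 11.84 ± 0.15 (adjusted p = 2.5e-24), and the organs did not overlap. Lack of overlap was common: all 4 heart libraries lay above all 4 kidney libraries for 30.5% of tested genes. The reverse held for 33.8%. Of the 12 leading heart genes, 4 had no kidney count. Lrrc10, a leucine-rich repeat protein of heart muscle, reached 183 ± 14.9 CPM in heart and was at least 632-fold higher there, taking 3 counts over the 4 kidney libraries as the floor. On the same floor Cavin4, a caveolar protein of muscle, was at least 569-fold higher, Nkx2-5, a homeobox factor of heart development, at least 513-fold, and Dhrs7c, a dehydrogenase of the sarcoplasmic reticulum, at least 505-fold. The others were Trdn, Actc1, Csrp3, Ckmt2, Casq2, Xirp2 and Myl2, with log2 fold changes from 11.03 to 11.31.

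The leading kidney genes came from several parts of the tubule. Car12, a membrane carbonic anhydrase (chromosome 9, 66713686 to 66766845), had no count in any heart library and 271, 261, 247 and 239 CPM in kidney, at least 604-fold lower in heart. A further 6 of the 12 leading kidney genes had no heart count. They were Atp6v1g3, a proton pump subunit of intercalated cells (123 ± 7.82 CPM in kidney), Defb29, a beta-defensin, Mettl7a2, Aqp3, a water channel of principal cells (114 ± 11.8 CPM), Acox2, a peroxisomal oxidase of bile acid intermediates, and Prodh2, a hydroxyproline dehydrogenase. Their bounds ran from at least 258-fold lower in heart for Prodh2 to at least 291-fold lower for Atp6v1g3. Mettl7a2 overlaps another annotated gene, so its value is uncertain. Aldh8a1, Serpina1f, Cyp4a31, Slco1a6 and Slc13a1, the sodium-sulfate cotransporter of the proximal tubule, had 1 or 2 heart counts in all. Slc13a1 had 334 ± 27.4 CPM in kidney, 1186 times the heart level with a 95% counting interval of 328 to 9798. Cyp4a31 and Serpina1f have close copies in the genome, between which reads may be split.

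The heart gene lists set the organs apart as groups. Of 101 measured members of 6 lists, 94 were called higher in heart and 0 lower, and the median log2 fold change was 6.99, or 6.97 with genes without kidney counts at their bound. The lists hold genes known for heart muscle, so their counts describe the tissue. Of the measured members 4 had no kidney count, passed the filter through heart alone and could only come out higher. All 24 sarcomere genes were higher, with a median of 10.18 and a summed level of 160072 ± 3138 CPM in heart and 288 ± 14.7 CPM in kidney. Actc1, cardiac actin, had 17748 ± 508 CPM in heart and 7.25 ± 0.827 CPM in kidney (11.25 ± 0.07). Myl2, the ventricular myosin light chain, had 20931 ± 968 CPM in heart and 9.94 ± 2.50 CPM in kidney (11.03 ± 0.09). Tnnt2 and Tnni3, troponins T and I of the thin filament, differed by 10.99 ± 0.08 and 10.96 ± 0.08. Ttn, the giant spring protein titin, had 25563, 25836, 25892 and 27801 CPM in heart and 29.8, 29.6, 30.02 and 28.3 CPM in kidney. The smallest change of the list was that of Myom2, an M-band protein, at 6.47 ± 0.10.

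All 15 measured genes of calcium handling were higher in heart (median 6.97). Ryr2, the release channel of the sarcoplasmic reticulum, had 2352, 2620.3, 2564 and 2629 CPM in heart and 4.91, 4.62, 2.22 and 3.74 CPM in kidney (9.34 ± 0.11). Atp2a2, the pump that returns calcium to the reticulum and is made in other cells as well, had 10239 ± 516 CPM in heart and 359 ± 38.98 CPM in kidney (4.84 ± 0.07). Pln, phospholamban, which restrains that pump, differed by 9.96 ± 0.12, and Hrc, a calcium-binding protein of the reticulum, by 10.07 ± 0.12. Slc8a1, the sodium-calcium exchanger, showed the smallest change of the list at 1.35 ± 0.16.

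Of 20 channel and gap junction genes 18 were higher (median 5.06, or 4.98 with genes without kidney counts at their bound). Bves, a cAMP-binding membrane protein, had 95.9 ± 6.02 CPM in heart and no kidney count, at least 331-fold higher in heart. Hcn4, the pacemaker channel, had 11.2 ± 4.48 CPM in heart and no kidney count, at least 38.9-fold higher. Gja1, connexin 43, differed by 5.69 ± 0.15. The exceptions were Kcnq1, a repolarising potassium channel (0.65 ± 0.13), whose reads cannot be told apart from those of an overlapping antisense gene, and Scn4b, a sodium channel beta subunit, which had 28.99 ± 4.63 CPM in heart and 54.4 ± 4.89 CPM in kidney (-0.91 ± 0.13). Among 17 genes of the intercalated disc and costamere 15 were higher (median 5.63), led by Xirp2, a protein of the disc, at 11.08 ± 0.16. Vcl, vinculin, and Jup, plakoglobin, which epithelia use as well, were at 0.98 ± 0.19 and 0.97 ± 0.08 and were not called. Vcl was called, at 1.07 without heart replicate 4 and at 1.10 without kidney replicate 1, and Jup, at 1.01, without kidney replicate 4.

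All 15 measured cardiac transcription regulators were higher in heart (median 6.99, the same with genes without kidney counts at their bound). Tbx5, a T-box factor of heart and forelimb, had 58.6 ± 13.7 CPM in heart and no kidney count, at least 202-fold higher in heart. Gata4, a zinc finger factor of heart muscle, had 125 ± 10.4 CPM in heart and 1 kidney count in all, 1302 times the kidney level with a 95% counting interval of 233 to 51502. Of 10 hormones and receptors 7 were higher. Nppb, the B-type natriuretic peptide, had 325, 427, 256 and 401 CPM in heart and 0, 1.15, 0 and 0 CPM in kidney, 1212 times the kidney level with an interval of 414 to 5882. Nppa, the atrial natriuretic peptide, had 7.05, 72.6, 36.04 and 40.9 CPM in heart and 0, 0.770, 0 and 0 CPM in kidney, and its lowest heart value was that of replicate 1. Without that library the log2 fold change of Nppa was 7.66, against 7.29 with it. Those of Myl7 and Sln were 8.48 and 11.33 without it, against 8.08 and 10.92. The values of Sln and Nppa rest on few kidney counts. The receptors Adra1a and Npr1 were at 0.35 and -0.28 and were not called.

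The kidney lists differed in the opposite direction along the nephron. Of 121 measured members of 10 lists, 111 were called lower in heart and 2 higher, and the median log2 fold change was -7.43 (-6.51 with genes without heart counts at their bound). Of these members 20 had no heart count, passed the filter through kidney alone and could only come out lower. The lists hold genes known for kidney, so their counts describe the tissue. In bulk tissue, fewer cells of a type and less RNA per cell cannot be told apart. The podocyte list was mixed, with 5 of 12 genes lower, 1 higher and 6 not called. Nphs1, nephrin of the slit diaphragm, had no heart count and 11.1 ± 3.94 CPM in kidney, at least 26.5-fold lower in heart. Col4a3, a collagen of the glomerular basement membrane, differed by -5.73 ± 0.18. Wt1, Podxl, Synpo, Magi2 and Cdkn1c, which other cells express as well, lay between -0.53 and 0.76. Plce1, a phospholipase C known from podocytes and heart muscle, was higher in heart, with 49.4, 55.5, 56.5 and 46.4 CPM, against 7.17, 15.8, 9.26 and 12.5 CPM in kidney (2.22 ± 0.18, adjusted p = 3.3e-10).

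All 17 measured apical transporters of the proximal tubule were lower in heart, with a median of -8.34, which was the same with genes without heart counts at their bound, and a summed level of 28.9 ± 2.15 CPM in heart and 9645 ± 218 CPM in kidney. Slc34a1 differed by -9.28 ± 0.10, Slc22a12, the urate transporter, by -9.14 ± 0.32, and Slc5a10, a sodium-sugar cotransporter, by -8.60 ± 0.20. Slc5a8, a sodium-coupled lactate transporter, had 1 heart count in all and 142 ± 12.4 CPM in kidney. Slc22a12 overlaps Nrxn2 and Slc5a10 overlaps Grap, so some of their reads may belong to the other gene. All 10 basolateral transporters were lower as well (median -7.78, or -6.61 with Slco4c1, which had no heart count, at its bound). Slc22a8 and Slc22a6, which take organic anions from the blood, differed by -9.03 ± 0.14 and -8.90 ± 0.19.

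Further along the nephron, all 12 measured genes of the thick ascending limb were lower in heart (median -8.19, or -7.40 with genes without heart counts at their bound). Umod, uromodulin, the main protein of normal urine, had 0.543, 2.75, 0.554 and 1.83 CPM in heart and 708, 772, 888 and 795 CPM in kidney. Slc12a1, the target of loop diuretics, differed by -9.29 ± 0.12. Of 10 genes of the distal convoluted and connecting tubule 9 were lower and 1 higher. Slc12a3, the target of thiazides, had 2.38 ± 0.438 CPM in heart and 1025 ± 59.7 CPM in kidney. Klk1, a kallikrein with close copies in the genome, had 6.45 ± 1.29 CPM in heart and 3283 ± 129 CPM in kidney. The higher gene was Stk39, a kinase that activates Slc12a3 and related cotransporters, with 136, 163, 175 and 165 CPM in heart and 56.99, 57.7, 57.1 and 60.3 CPM in kidney (1.46 ± 0.09, adjusted p = 4.2e-12). The organs did not overlap for it.

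All 9 measured genes of the principal cell and all 14 of the intercalated cell were lower in heart. Of these, 3 and 5 had no heart count and passed the filter through kidney alone. Aqp2, the water channel that vasopressin moves to the apical membrane, had 2.17, 0, 0 and 0.610 CPM in heart and 396, 404, 349 and 345 CPM in kidney. The epithelial sodium channel subunits Scnn1b and Scnn1g had no heart count and were at least 85.8-fold and 82.6-fold lower there. In the intercalated cell list, Rhcg, an ammonia channel, was at least 201-fold lower, Atp6v1b1, a proton pump subunit, at least 128-fold, and Foxi1, the factor that specifies these cells, at least 91.3-fold. Of 14 measured kidney transcription factors 13 were lower, among them Pax2, Lhx1 and Emx1 without a heart count, and Esrrb (-0.15 ± 0.14) was not called. Hnf4a, a factor of the proximal tubule and liver, had 1.09, 0.550, 1.66 and 0.610 CPM in heart and 443, 475, 433 and 470.0 CPM in kidney. All 9 measured genes of the renin, vitamin D and phosphate axes were lower, among them Kl, klotho (-8.66 ± 0.19), and Ren1, renin (-6.66 ± 0.31). Of 14 epithelial adhesion and keratin genes 13 were lower, and Krt19, a simple-epithelium keratin, was not called at 7.98 ± 3.06 CPM in heart and 10.8 ± 1.37 CPM in kidney.

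**Figure D2:**
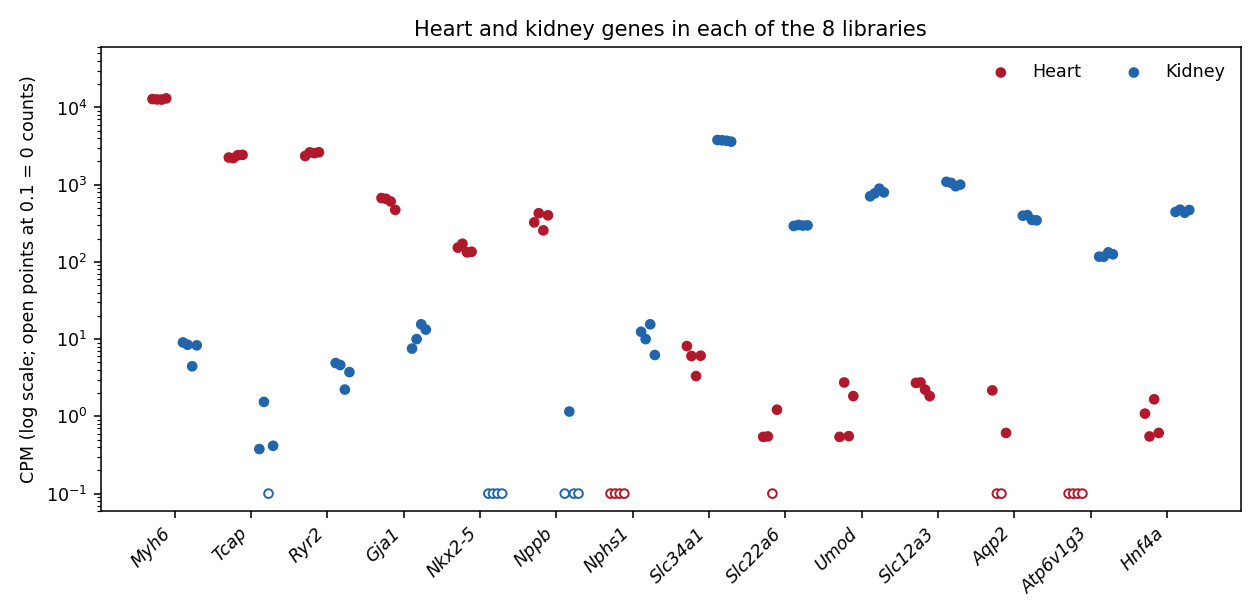
CPM (vertical axis, log scale) of 14 genes (horizontal axis) in the 4 heart libraries (red, left) and the 4 kidney libraries (blue, right) of each gene; open points mark 0 counts. No gene shown overlaps between the organs. Of all tested genes, 30.5% lay without overlap above in heart and 33.8% above in kidney.

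Nuclear genes of oxidative phosphorylation were higher in heart, although both organs are rich in mitochondria. Of 83 genes of complexes I to V, 70 were called higher, 2 lower and 11 were not called, with a median log2 fold change of 1.504. Their summed level was 133475 ± 2606 CPM in heart and 45635 ± 883 CPM in kidney. Scaled over all 60 libraries, heart with 155582 CPM and kidney with 51040.3 CPM had the highest means of the 15 tissues, and liver followed with 48319 CPM. Kidney libraries ran from 49899 to 53159 CPM and liver libraries from 45236 to 51307 CPM, so kidney and liver overlapped. With totals in place of TMM, 55 genes were higher and 3 lower. The median lay 1.55 above that of all genes under both scalings. This is no check, because a change of scaling shifts all genes by about the same amount.

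The medians of the 5 complexes ran from 1.13 to 1.55. Complex I, which takes electrons from NADH, had 32 of 36 genes higher (median 1.52). Ndufa5, one of its subunits, had 1777, 1706, 1785 and 1797 CPM in heart and 446, 449, 477 and 443 CPM in kidney (1.96 ± 0.05, adjusted p = 7.6e-19). All 4 genes of complex II, succinate dehydrogenase, were higher (median 1.13), from Sdhc at 1.02 ± 0.06 to Sdhb at 1.66 ± 0.05, but with totals 1 was. Sdhc fell short of the size needed for a call without heart replicate 2 (0.99) and without kidney replicate 4 (0.99). Of 9 genes of complex III 8 were higher (median 1.55), with Uqcrc1, a core protein, at 1.92 ± 0.05. Of 18 genes of complex V, the ATP synthase, 14 were higher (median 1.504). Atp5g1, a subunit of its rotor ring, had 2662, 2605, 2312 and 2252 CPM in heart and 506, 500.5, 485 and 462 CPM in kidney, and the organs did not overlap. Atpif1, the inhibitor of the ATP synthase, had 223 ± 14.2 CPM in heart and 385 ± 22.4 CPM in kidney (-0.79 ± 0.07), which missed the size needed for a call with TMM and passed it with totals.

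Complex IV, cytochrome oxidase, held changes in both directions: 12 of 16 genes were higher, 2 lower and 2 not called. The genes at its extremes were muscle and general forms of the same subunits. Cox6a2, the muscle form of subunit 6a (chromosome 7, 128205435 to 128206387), had 8655, 8566, 7856 and 8202 CPM in heart and 4.53, 8.47, 9.26 and 5.82 CPM in kidney. Cox6a1, the general form (chromosome 5, 115345642 to 115348981), had 328, 358, 344 and 339 CPM in heart and 1436, 1542, 1596 and 1479 CPM in kidney. The log2 fold changes were 10.19 ± 0.10 and -2.14 ± 0.06, and neither gene overlapped between the organs. Cox8b, the muscle form of subunit 8, had 2547, 2474, 2386 and 2594 CPM in heart and 26.4, 44.7, 53.4 and 29.9 CPM in kidney (6.01 ± 0.13). Its partner Cox8a had 627, 685, 585 and 622 CPM in heart and 1847, 1833, 1791 and 1918 CPM in kidney (-1.55 ± 0.06), lower in every heart library than in every kidney library. Cox7a1, the muscle form of subunit 7a, had 3872 ± 207 CPM in heart and 69.5 ± 5.87 CPM in kidney (5.80 ± 0.07), and its partner Cox7a2 had 1680.0 ± 39.5 CPM in heart and 905 ± 43.4 CPM in kidney, not called at 0.89 ± 0.05. On the scale of all 60 libraries Cox6a2 had 9698 CPM in heart, and skin, the next tissue, had 344 CPM.

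**Figure D3:**
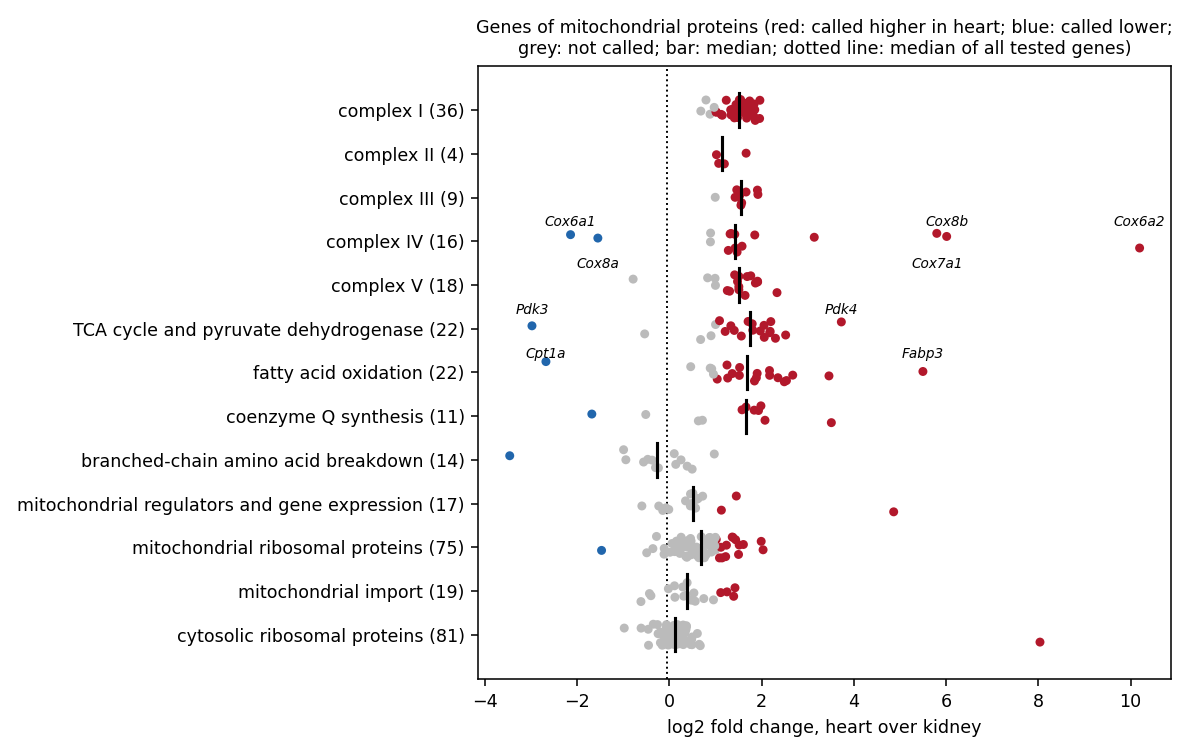
Log2 fold change, heart over kidney (horizontal axis), of the measured genes of groups of mostly mitochondrial proteins, with the median of each group as a bar. Complex IV holds genes on both sides, from Cox6a1 at -2.14 to Cox6a2 at 10.19.

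Fuel oxidation upstream of the chain followed the same direction for pyruvate and fatty acids. In the citric acid cycle and pyruvate dehydrogenase list 17 of 22 genes were higher and 1 lower (median 1.75). Cs, citrate synthase, had 1493, 1504, 1374 and 1420.4 CPM in heart and 256, 251, 262 and 241 CPM in kidney (2.52 ± 0.06). Pdk4, a kinase that switches pyruvate dehydrogenase off when fat is burned, had 393, 256, 895 and 681 CPM in heart and 18.5, 27.3, 64.1 and 58.2 CPM in kidney (3.73 ± 0.33). It varied several-fold between replicates in both organs and still did not overlap. Pdk3, another kinase of this family, was the lower gene, with 5.22 ± 2.32 CPM in heart and 41.6 ± 8.65 CPM in kidney (-2.98 ± 0.25).

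Of 22 measured genes of fatty acid uptake and oxidation 17 were higher in heart and 1 lower (median 1.68). Fabp3, which carries fatty acids in the muscle cytosol and overlaps Zcchc17, had 1854, 1879, 1871 and 1840.0 CPM in heart and 35.1, 50.8, 43.7 and 34.9 CPM in kidney (5.50 ± 0.09). Cd36, a fatty acid transporter that fat and endothelial cells also make, differed by 3.46 ± 0.07. Hadhb and Hadha, the subunits of the trifunctional protein of beta-oxidation, differed by 2.67 ± 0.07 and 2.54 ± 0.06. White fat markers summed to 46.4 ± 33.8 CPM in heart and 518 ± 147 CPM in kidney, and endothelial markers to 1428 ± 24.6 CPM in heart and 639 ± 11.8 CPM in kidney; their part in the value of Cd36 was not tested. Cpt1a, the general form of the carnitine palmitoyltransferase that admits fatty acids to mitochondria, was lower in heart, with 50.5, 36.3, 45.5 and 36.6 CPM, against 264, 236, 299.8 and 285 CPM in kidney (-2.68 ± 0.11). Its muscle form Cpt1b had 3 counts in heart and 3 in kidney over all libraries and was not tested. Cpt1b overlaps Gm44502, a protein-coding gene on the same strand, so its reads may not have been assigned to it and these counts do not measure its level.

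Among genes of other mitochondrial fuels, those of branched-chain amino acid breakdown were mostly not called. Over all tested genes 38.9% were called in either direction. Of 6 ketone body genes 1 was higher, 2 were lower and 3 not called, with summed levels of 3079 ± 58.7 CPM in heart and 2397 ± 88.9 CPM in kidney. The lower count was 1 without heart replicate 1 or 2 or kidney replicate 3 or 4. Slc16a1, a carrier of lactate and ketone bodies, was higher in heart (2.57 ± 0.09), and Bdh1, an enzyme of ketone body exchange, was lower (-1.84 ± 0.13). Oxct1, the enzyme that activates ketone bodies for use, was not called at 1786 ± 35.4 CPM in heart and 1475 ± 64.1 CPM in kidney. Of 14 measured genes of branched-chain amino acid breakdown 0 were higher and 1 lower (median -0.27), and with totals 3 were lower. Without heart replicate 1 or 2 or kidney replicate 4, 2 of them were lower, and without heart replicate 2 or 4 or kidney replicate 2, 1 was higher. The lower gene with TMM was Bcat1, a cytosolic aminotransferase, at 1.28 ± 0.581 CPM in heart and 14.5 ± 6.07 CPM in kidney.

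Genes of mitochondrial translation, import, assembly and regulation had smaller medians than the respiratory subunits, and those of coenzyme Q synthesis did not. Over all tested genes 16.6% were called higher, and the counts of ribosomal proteins, import genes and regulators that follow are near that share. Of 75 measured mitochondrial ribosomal protein genes 14 were higher and 1 lower (median 0.69), and with totals 8 were higher. Of 19 measured import genes 4 were higher (median 0.38), and 2 with totals. Of 8 complex I assembly factors 2 were higher (median 0.60), and 0 with totals. Of 11 genes of coenzyme Q synthesis 7 were higher and 1, Coq8b, lower (median 1.66). Of 17 measured regulators of mitochondrial gene expression 3 were called, Perm1, Ppargc1b and Lrpprc, all higher (median 0.50). Perm1, a muscle regulator induced by PGC-1 and ERR, had 292, 336, 312 and 360.4 CPM in heart and 9.06, 10.01, 12.2 and 13.3 CPM in kidney (4.86 ± 0.12). Ppargc1a, the coactivator PGC-1 alpha, had 292, 284, 384 and 439.7 CPM in heart and 238, 244, 229 and 233 CPM in kidney, a change of 0.57 ± 0.10 that was not called. Tfam, which packs and transcribes mitochondrial DNA, was at 0.35 ± 0.10, and Esrra, an orphan nuclear receptor of respiratory genes, at 0.62 ± 0.10. For comparison, 1 of 81 measured cytosolic ribosomal protein genes was called higher, Rpl3l, a striated muscle form, and the median was 0.13 with TMM and -0.23 with totals. Of these genes 1 was called lower without heart replicate 2 or 3 or kidney replicate 2 or 4.

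The ratio of a muscle form to its partner within a library needs no scaling between libraries. For 23 pairs, the log2 ratio of counts with 0.5 added was set side by side in the 8 libraries. The pairs were chosen with earlier results of these data known, so the ratios are a description and no p is given. In 22 pairs all 4 heart ratios lay above all 4 kidney ratios. Among single genes, all 4 heart libraries lay above all 4 kidney libraries for 30.5% of those tested. Cox6a2 over Cox6a1 was 4.72, 4.58, 4.51 and 4.60 in heart and -8.25, -7.48, -7.40 and -7.94 in kidney, a difference of 12.37. The pairs of subunits 8 and 7a differed by 7.62 and 4.90. Slc25a4 over Slc25a5, forms of the ADP-ATP carrier, was 5.15 ± 0.05 in heart and -0.69 ± 0.09 in kidney. Sucla2 over Suclg2, the ATP-linked and GTP-linked subunits of succinyl-CoA ligase, was 2.07 ± 0.09 in heart and -0.44 ± 0.13 in kidney. The smallest of the 22 differences, 0.95, was that of Slc25a12 over Slc25a13, carriers of aspartate and glutamate.

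The exception was lactate dehydrogenase. In this pair the form set first and counted with the muscle forms, Ldhb, is the heart form, and Ldha is the skeletal muscle form. Ldhb over Ldha was 1.10, 0.98, 0.68 and 0.96 in heart and 1.21, 1.07, 0.89 and 0.96 in kidney, a difference of -0.10, and the organs overlapped. Both genes had positive log2 fold changes, 0.67 ± 0.07 and 0.77 ± 0.07, and neither was called. Ratios also depend on where each transcript is primed, so they are compared between organs and not read as shares of protein. The ratios with Cpt1b, Pgam1 or Pklr rest on few counts of that gene, at most 28 in an organ, and with equal counts of Cpt1b in the organs the difference of its pair rests on Cpt1a. Reads of Pgam1 may be lost to near-identical copies.

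**Figure D4:**
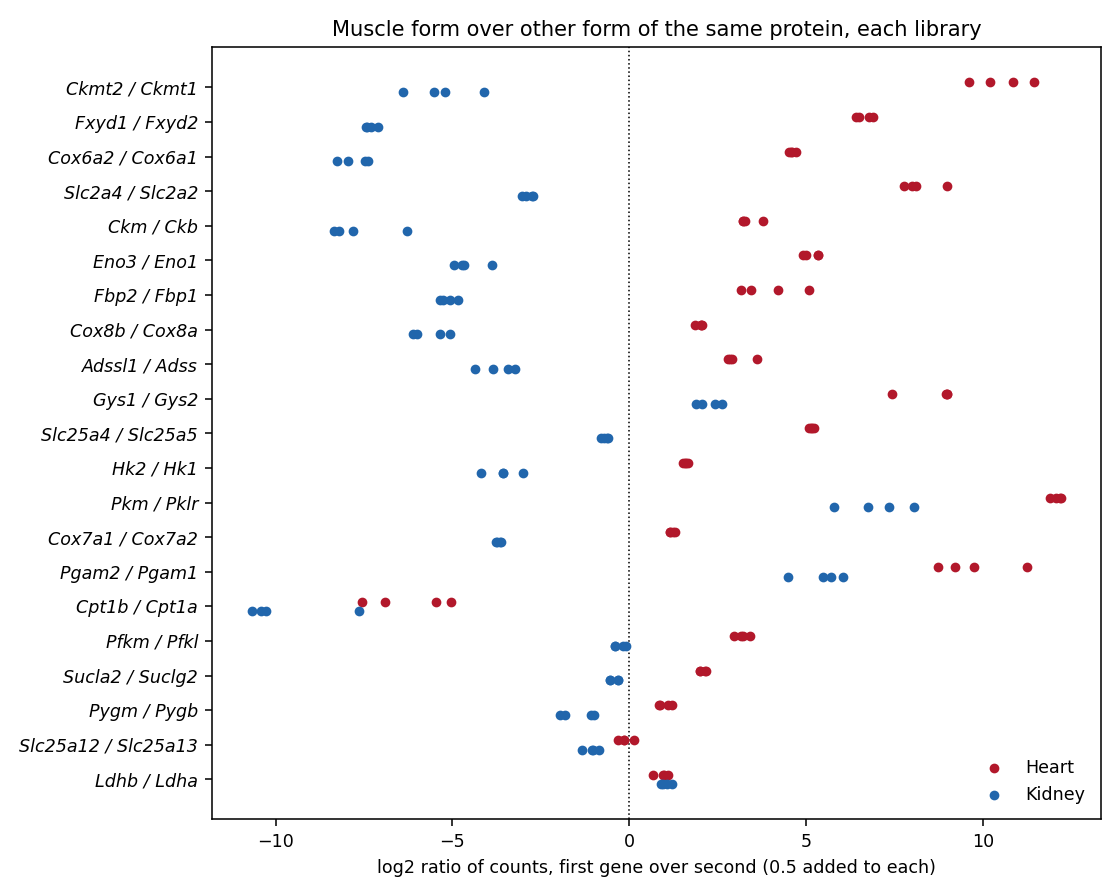
Log2 ratio of counts of the first gene over the second (horizontal axis) for 21 of the 23 pairs of forms of a protein, 4 heart libraries in red and 4 kidney libraries in blue. Heart lies to the right of kidney without overlap in 20 of the pairs shown, and Ldhb over Ldha overlaps.

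The promoters of the pairs of subunits 7a and 8 of cytochrome oxidase and of Cox6a1 are printed because the ratios of these forms differed between the organs; that of Cox6a2 is not shown. The windows run from 250 bases before to 50 after the transcription start and come from RefSeq on GRCm38.p6, in which 19 of 23 muscle forms and 19 of 23 partners were found. Capitals mark matches, on either strand, to a TATA box (TATAAA), to the GABP motif (ACTTCCGG) or to the palindromic NRF-1 motif, and GABP and NRF-1 are known for binding genes of respiratory subunits. The motifs of ERR (TCAAGGTCA) and MEF2 were searched as well and had no match in these windows.
Cox7a1, chr7:30183921-30184220, plus strand: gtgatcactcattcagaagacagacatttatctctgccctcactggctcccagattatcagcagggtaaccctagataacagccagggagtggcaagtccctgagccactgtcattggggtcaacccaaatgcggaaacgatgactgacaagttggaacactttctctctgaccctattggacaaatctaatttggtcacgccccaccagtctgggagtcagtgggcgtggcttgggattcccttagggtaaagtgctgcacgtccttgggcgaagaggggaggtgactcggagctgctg
Cox8b, chr7:140900397-140900696, minus strand: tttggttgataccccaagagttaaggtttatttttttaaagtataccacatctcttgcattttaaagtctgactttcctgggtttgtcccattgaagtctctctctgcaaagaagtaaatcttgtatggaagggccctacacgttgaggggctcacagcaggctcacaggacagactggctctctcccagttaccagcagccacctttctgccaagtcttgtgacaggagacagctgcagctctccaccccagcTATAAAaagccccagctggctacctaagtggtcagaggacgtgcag
Cox7a2, chr9:79759804-79760103, minus strand: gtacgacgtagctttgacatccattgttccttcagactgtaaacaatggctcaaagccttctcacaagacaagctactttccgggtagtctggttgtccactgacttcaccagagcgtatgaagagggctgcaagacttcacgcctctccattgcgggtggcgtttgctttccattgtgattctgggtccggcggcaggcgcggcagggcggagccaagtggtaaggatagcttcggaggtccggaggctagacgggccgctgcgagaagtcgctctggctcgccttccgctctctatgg
Cox8a, chr19:7217567-7217866, minus strand: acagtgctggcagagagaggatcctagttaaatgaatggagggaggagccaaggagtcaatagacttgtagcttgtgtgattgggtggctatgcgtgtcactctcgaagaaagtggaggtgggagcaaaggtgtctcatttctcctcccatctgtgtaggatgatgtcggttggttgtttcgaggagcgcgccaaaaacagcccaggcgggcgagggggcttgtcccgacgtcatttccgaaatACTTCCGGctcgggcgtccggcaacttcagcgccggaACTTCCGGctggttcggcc
Cox6a1, chr5:115348909-115349208, minus strand: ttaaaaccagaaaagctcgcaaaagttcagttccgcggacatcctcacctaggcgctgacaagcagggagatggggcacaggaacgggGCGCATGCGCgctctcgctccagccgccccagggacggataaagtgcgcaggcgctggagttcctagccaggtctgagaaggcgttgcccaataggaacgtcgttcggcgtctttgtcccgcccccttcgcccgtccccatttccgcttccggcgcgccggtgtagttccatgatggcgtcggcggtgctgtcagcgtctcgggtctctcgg

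The window of Cox8b, higher in heart, held TATAAA, as do 13.6% of all 32851 promoter windows. This match begins at base 255, so it lies after the annotated transcription start, which 250 bases of the window precede. The window of Cox8a, lower in heart, held the GABP motif at 2 places, and 3.89% of all windows hold it at least once. That of Cox6a1, also lower, held the NRF-1 motif, as do 0.971% of all windows. None of these 5 motifs was found in the windows of Cox7a1 and Cox7a2. The windows of the muscle forms Cox7a1 and Cox8b held 7 and 2 CG dinucleotides, and those of Cox7a2, Cox8a and Cox6a1 held 20, 19 and 32. Over the 25 windows of all muscle forms found, Ldhb counted among them, the median was 9. It was 19 over the 25 windows of their partners and 7 over all windows. Of these muscle form windows 8% held TATAAA and 0% the GABP or the NRF-1 motif. Of the partner windows 12% held TATAAA, 4% the GABP motif and 8% the NRF-1 motif. These matches describe letters in the windows and are not binding sites.

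Creatine genes were split between the organs. Ckmt2, the creatine kinase of muscle mitochondria, had 2839, 2790.1, 2521 and 2526 CPM in heart and 0.755, 0.385, 2.22 and 1.25 CPM in kidney (11.10 ± 0.13), and Ckm, the cytosolic muscle form, differed by 9.70 ± 0.18. Gatm, which makes the precursor of creatine, had 7.60, 7.70, 9.42 and 6.71 CPM in heart and 1639.8, 1749, 1706 and 1414 CPM in kidney (-7.68 ± 0.11). The organs did not overlap for either gene. Gamt, the enzyme of the next step (-1.69 ± 0.21), Ckb (-1.24 ± 0.09) and Ckmt1 (-4.62 ± 0.26) were lower in heart too, and the creatine transporter Slc6a8 was not called at -0.06 ± 0.09. On the scale of all 60 libraries kidney had 1821 CPM of Gatm, and brain was next with 171 CPM.

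Genes of glucose use were mostly higher in heart where called, and genes of glucose output were lower. Among all tested genes the shares called were 16.6% higher and 22.4% lower. Of 19 measured glycolysis genes 8 were higher and 3 lower in heart (median 0.86). Hk2, the muscle hexokinase, had 513, 472, 442 and 482 CPM in heart and 5.28, 11.9, 8.15 and 9.14 CPM in kidney (5.79 ± 0.13). Eno3, muscle enolase, differed by 7.56 ± 0.12, and Slc2a4, the insulin-regulated glucose transporter, by 3.68 ± 0.09. Eno1, the general enolase (-2.09 ± 0.09), and Slc2a1, the general glucose transporter (-1.77 ± 0.15), were among the lower genes. Of 7 gluconeogenesis genes 5 were lower, and Fbp2 and Pck2 were not called. Fbp1, fructose bisphosphatase, had 2.98 ± 1.88 CPM in heart and 1159 ± 41.8 CPM in kidney (-8.59 ± 0.14), G6pc, which releases free glucose, differed by -8.12 ± 0.25, and Pck1, the gluconeogenic carboxykinase, by -7.80 ± 0.18.

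Peroxisome, glutathione and drug-handling genes were mostly lower in heart where they were called. Among all tested genes 16.6% were called higher and 22.4% lower. Of 22 peroxisome genes 10 were lower and 2, Crat and Phyh, higher (median -0.97). Phyh fell short of the size needed for a call without kidney replicate 1 (0.99) and without kidney replicate 4 (0.96). Hao2, a hydroxyacid oxidase, differed by -9.47 ± 0.17, and Cat, catalase, by -1.71 ± 0.07. Of 21 antioxidant genes 10 were lower and 2, Sod2 and Prdx2, higher (median -0.99), and with totals 0 were higher. Gpx3, the glutathione peroxidase that kidney secretes into plasma (chromosome 11, 54902453 to 54910377), had 297, 656, 485 and 507 CPM in heart and 28986, 30857, 27071 and 27694 CPM in kidney (-5.88 ± 0.15), with no overlap. Sod2, the superoxide dismutase of the mitochondrial matrix, had 958 ± 79.97 CPM in heart and 400.3 ± 15.6 CPM in kidney (1.26 ± 0.06). Of 18 measured genes of drug metabolism 12 were lower and 1, Aldh1a1, higher, and with totals 0 were higher. Gsta2, a glutathione transferase with close copies in the genome, differed by -9.77 ± 0.21. Of 26 measured cytochromes P450 20 were lower and 1, Cyp2u1, higher (median -3.97), and with totals 0 were higher.

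Regulators of ion pumps differed between the organs. Fxyd1, phospholemman, which regulates the sodium pump of heart muscle, had 1029 ± 13.2 CPM in heart and 23.9 ± 3.199 CPM in kidney (5.42 ± 0.08). Fxyd2, the regulator in tubules, had 10.1 ± 1.46 CPM in heart and 3814 ± 104 CPM in kidney (-8.55 ± 0.08). Of 17 measured subunits of the proton pump 11 were lower in heart and 1, Atp6v0a1, higher (median -1.52), and with totals 0 were higher. The share called lower over all tested genes was 22.4%. Atp6v0a1 fell short of the size needed for a call without heart replicate 2 (0.95) and without kidney replicate 2 (0.99).

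Transporter families, chosen after the lists, differed in their balance. The shares called over all tested genes were 16.6% higher and 22.4% lower. Of 272 measured solute carriers 39 were higher in heart and 165 lower (median -1.73). Of 33 measured potassium channel genes 20 were higher and 9 lower (median 1.87). Of 13 measured claudins, the seals of tight junctions, 1, the endothelial Cldn5, was higher and 11 were lower. The median was -7.09, or -4.83 with the 3 claudins without heart counts at their bound. These passed the filter through kidney alone. With totals 0 claudins were higher. Cldn5 was also not called without heart replicate 2 or 3 or kidney replicate 3 or 4.

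Markers of cells other than heart muscle and tubule also differed per nuclear protein-coding count. Of all 11470 tested genes 16.6% were called higher in heart and 22.4% lower, and with totals 1393 were higher and 3355 lower. Of 12 endothelial genes 8 were higher in heart and 0 lower (median 1.21), and with totals 4 were higher and 1 lower. Pecam1, an adhesion protein of endothelium, had 136, 164, 179.6 and 185 CPM in heart and 58.5, 68.1, 80.8 and 61.1 CPM in kidney, while Emcn, endomucin, was not called at -0.77 ± 0.11. Of 9 fibroblast genes 7 were higher (median 2.33), with Dcn, decorin of the matrix, at 2.87 ± 0.08. Of 8 measured mural genes 4 were higher (median 1.11), with Rgs5, a pericyte marker, at 3.24 ± 0.09. Of 7 measured macrophage genes 6 were higher (median 1.75), with Lyz2, lysozyme, at 2.95 ± 0.10, and Csf1r, the receptor of their growth factor, was not called at -0.14 ± 0.11. All 4 measured globin genes were higher (median 2.95). Without heart replicate 1, Hbb-bs was at 2.54, against 2.91 with it, and Hba-a1 was at 2.59, against 3.02. Hba-a1 and Hba-a2 are near-identical, so reads may be split between them.

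White fat markers lay in the other direction. All 5 measured white fat genes were lower in heart, and the 6 markers summed to 56, 79, 31 and 155 counts in the heart libraries and to 953, 1124, 1635 and 1625 in the kidney libraries. Of 3 measured brown fat genes 1 was lower and 2 were not called (median -0.29, and 0.02 without kidney replicate 4). The lower gene was Ucp1, the uncoupling protein of brown fat, with 0, 7.15, 0 and 0 CPM in heart and 14.7, 22.7, 84.1 and 41.97 CPM in kidney (-4.44 ± 0.70, and -3.80 without kidney replicate 3). Cidea, a lipid droplet protein, and Dio2, a deiodinase, were at 0.77 ± 0.22 and -0.29 ± 0.40. Star, the cholesterol carrier of steroid-making cells, was called lower in heart at -3.32 ± 1.00 (adjusted p = 0.00557), but without kidney replicate 4 it was at -0.52 and not called (adjusted p = 0.207). Of the 9 skeletal muscle markers Acta1, which heart muscle also makes, and Mybpc2 were measured, and both were called higher in heart. Acta1 had 571, 331, 519 and 409.8 CPM in heart and 3 kidney counts in all, 1584 times the kidney level with an interval of 542 to 7686, and Mybpc2 had 10.01 ± 1.17 CPM in heart and 1 kidney count, 103 times the kidney level with an interval of 17.98 to 4142. The fast myosins Myh1, Myh2 and Myh4 had 4, 0 and 0 counts in heart and 25, 0 and 0 in kidney. T cell, B cell, lung epithelium and thymocyte markers had too few counts to be tested. Of 9 measured immediate early genes 3 were higher in heart, Atf3, Nr4a1 and Btg2, beside 16.6% of all tested genes. Fos, the first gene many stimuli induce, was not called at 20.8 ± 18.97 CPM in heart and 18.2 ± 5.05 CPM in kidney. Btg2, an early response gene that slows division, had 66.2, 193, 69.9 and 47.6 CPM in heart and 45.3, 51.2, 43.7 and 39.5 CPM in kidney, and without heart replicate 2 its log2 fold change was 0.46 and it was not called, against 1.07 with it.

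**Figure D5:**
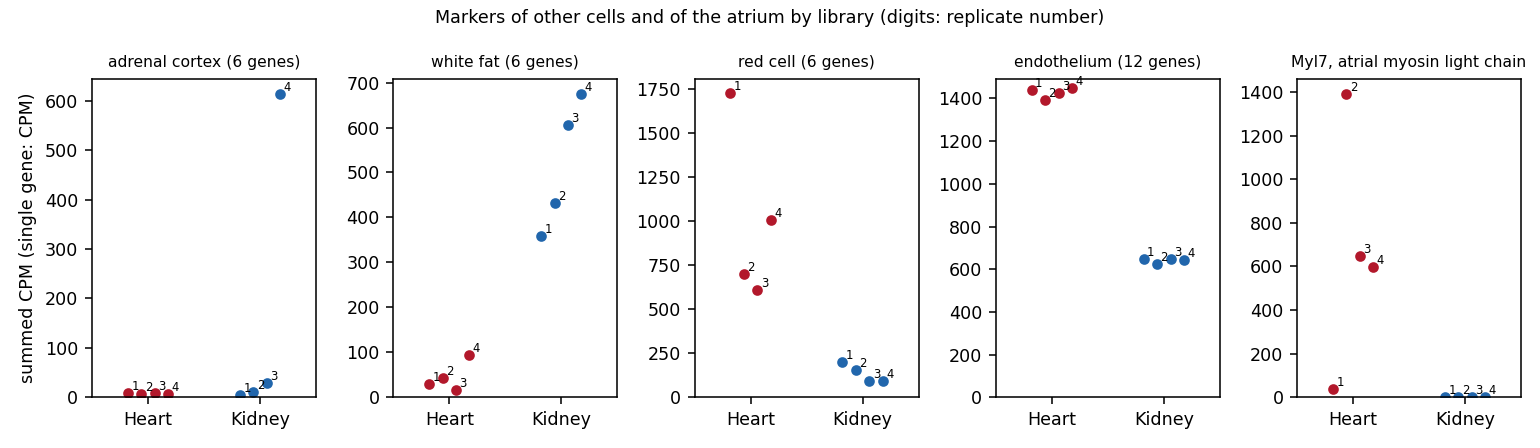
Summed CPM of the markers of other cell types and CPM of Myl7 (vertical axes) in the 4 heart libraries (red, left) and 4 kidney libraries (blue, right). Adrenal cortex markers are highest in kidney replicate 4, globins in heart replicate 1, and Myl7 has 37.4 CPM in heart replicate 1 and 598 to 1391 CPM in the other hearts.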

How the data were processed

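The deposited table holds counts of reads per gene, one column per library, which the authors made with FastQC, STAR and featureCounts on mm10, per the submitters' processing notes. The sources used here state neither versions nor how strand was treated. Of 54532 gene IDs, 54495 matched GENCODE release 21 of the mouse annotation, from which gene types and overlaps were taken. Counts of nuclear protein-coding genes in the 4 heart and 4 kidney libraries were filtered with filterByExpr (minimum count 10, minimum total 15), scaled by TMM and tested with edgeR 4.0.16 (glmQLFit, glmQLFTest; limma 3.58.1, R 4.3.3), organ as the only term. A gene was called at a Benjamini-Hochberg adjusted p below 0.05 over all tested genes and a log2 fold change beyond 1 in either direction. The SE is the log2 fold change divided by the square root of the F statistic. Genes without a count in an organ are given a bound from a floor of 3 counts over its 4 libraries, and genes with 1 to 3 counts a ratio with an exact 95% interval. The fit was tested on simulated data.

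Named genes were the 12 leading genes per direction with at least 100 CPM, up to 6 per list by size of change with members called against the list's organ, both genes of each pair, and called members of mitochondrial lists. Others were named after their values were seen. Some genes that this rule names are not reported here and stay in the counts of their lists and pairs. Members, lists and pairs were chosen with earlier results of these data known, and the gene families were added later. Lists are described by counts and medians. Motifs were matched exactly on both strands of RefSeq promoter windows. Alternatives were all genes with TMM, totals, DESeq2 size factors, no filter, DESeq2 1.42.0's Wald test, a replicate block, each library left out, all 60 libraries in one fit, and the 50 most abundant genes left out.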

Additional observations from a re-analysis of the deposited data

Results flagged for a closer look

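In 493 groups of 4 libraries, 1 library lay far from the other 3 in 45 by Dixon's gap criterion. Chance gives about 1 in 20 such groups where values are continuous and normally spread. For groups of few counts that rate does not hold, and no cause was tested. The most flags in heart fell to replicate 2, with 10, and the most in kidney to replicate 4, with 9.

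Single genes were flagged as follows. In heart replicate 1, Phyh had 622 CPM (other libraries of the organ 587 to 592). In heart replicate 2, Atp6v0a1 had 102 CPM (other libraries of the organ 80.5 to 81.5), Btg2 had 193 CPM (other libraries of the organ 47.6 to 69.9), Gamt had 19.8 CPM (other libraries of the organ 7.93 to 9.42). In heart replicate 3, Slc22a12 had 1.11 CPM (other libraries of the organ 0.543 to 0.610). In heart replicate 4, Ttn had 27801 CPM (other libraries of the organ 25563 to 25892). In kidney replicate 1, Eno3 had 15.5 CPM (other libraries of the organ 7.04 to 8.47), Foxi1 had 31.3 CPM (other libraries of the organ 40.7 to 41.2), Vcl had 15.1 CPM (other libraries of the organ 10.7 to 11.2). In kidney replicate 2, Csf1r had 58.5 CPM (other libraries of the organ 52.2 to 52.5), Tnnt2 had 4.62 CPM (other libraries of the organ 6.23 to 6.42). In kidney replicate 3, Aqp3 had 132 CPM (other libraries of the organ 107 to 109.8), Myh6 had 4.45 CPM (other libraries of the organ 8.31 to 9.06), Prdx2 had 276 CPM (other libraries of the organ 249 to 252), Prodh2 had 81.9 CPM (other libraries of the organ 118 to 119.6). In kidney replicate 4, Slco4c1 had 11.2 CPM (other libraries of the organ 16.9 to 17.8), Star had 258 CPM (other libraries of the organ 5.28 to 16.7).

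Some genes had counts in 1 library of an organ and none in the other 3. Slco1a6 had 0.543 CPM in heart replicate 1. Aldh8a1, Serpina1f and Slc5a8 had 0.550 CPM in heart replicate 2. Ucp1 had 7.15 CPM in heart replicate 2. Cyp4a31 had 0.610 CPM in heart replicate 4. Sln had 0.385 CPM in kidney replicate 2. Nppa had 0.770 CPM in kidney replicate 2. Nppb had 1.15 CPM in kidney replicate 2. Gata4 and Mybpc2 had 0.416 CPM in kidney replicate 4.

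Among the pairs, Cpt1b over Cpt1a was at -7.64 in kidney replicate 1, against -10.66 to -10.26, Ckm over Ckb was at 3.76 in heart replicate 4, against 3.22 to 3.28, Adssl1 over Adss was at 3.61 in heart replicate 4, against 2.78 to 2.91, Gys1 over Gys2 was at 7.42 in heart replicate 2, against 8.94 to 8.99.

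Among summed lists, in CPM, the sum over sarcomere genes was at 155411 in heart replicate 3 and at 161311 to 162247 in the other libraries of that organ. The sum over complex III was at 15879.7 in heart replicate 1 and at 15434 to 15442 in the other libraries of that organ. The sum over mitochondrial regulators and gene expression was at 987 in kidney replicate 4 and at 918 to 926 in the other libraries of that organ. The sum over antioxidant and glutathione genes was at 6169.5 in heart replicate 2 and at 5851 to 5902 in the other libraries of that organ. The sum over heat shock genes was at 1610.0 in heart replicate 2 and at 1341 to 1386 in the other libraries of that organ. The sum over fibroblast markers was at 554 in kidney replicate 3 and at 468 to 477 in the other libraries of that organ. The sum over adrenal cortex markers was at 614 in kidney replicate 4 and at 5.28 to 29.6 in the other libraries of that organ. The sum over adrenal medulla markers was at 67.3 in kidney replicate 4 and at 0 to 0.755 in the other libraries of that organ. The sum over lung epithelium markers was at 1.22 in heart replicate 4 and at 0 in the other libraries of that organ. The sum over thymocyte markers was at 0 in heart replicate 1 and at 0.550 to 0.610 in the other libraries of that organ. The sum over thymocyte markers was at 0.416 in kidney replicate 4 and at 0 in the other libraries of that organ. The sum over mesothelium markers was at 15.4 in kidney replicate 4 and at 19.2 to 20.00 in the other libraries of that organ. The sum over the 6 heart lists together was at 197573 in heart replicate 3 and at 203460 to 204594 in the other libraries of that organ.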

How the results depend on the processing

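The counts of 1900 genes higher and 2566 lower in heart stayed within 1.5 times under every alternative run. With 1 count added to each gene, 22 of 23 pair ratios did not overlap, as in the main run. The other runs on the pairs are no check of this. Ratios that do not overlap cannot come to overlap when a library is left out. Dropping the minimum count changed nothing, because all 23 pairs were used with it. Leaving out 1 library gave 1939 to 2011 genes higher and 2584 to 2692 lower. Scaling by totals gave 1393 higher and 3355 lower, and all 60 libraries in one fit gave 2521 higher and 2944 lower. Without the filter 2368 were higher and 3350 lower.

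With the replicate number as a block, 1901 genes were higher and 2563 lower, 4455 of them shared with the 4466 called without it. The labels do not say that a number marks one mouse. Deviations of same-numbered libraries correlated at 0.119, 0.0755, 0.0451 and 0.0727 across genes, and every library correlated best with its own number, a hint from the data and not the design. Of the genes named, Btg2 was not called under the block, at 0.98.

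Signs turned for genes that were not called. With totals, Fos was at -0.13, Oxct1 at -0.075 and Tfam at -0.0031. Leaving out 1 library at a time, Fos ranged from -0.56 (without heart replicate 2) to 0.54, Cdkn1c from -0.19 to 0.020 (above 0 without heart replicate 2 and, at 0.012, without kidney replicate 4), Dio2 from -0.62 to 0.023 (without kidney replicate 4), and Slc6a8 from -0.12 to 0.030 (without kidney replicate 2). In the fit of all 60 libraries Slc6a8 was at 0.0033. The causes were not tested. Calls of 11 named genes were lost with totals, among them Sod2 (0.91), Prdx2 (0.70), Pecam1 (0.95) and Lrpprc (0.78), and Atpif1 (-1.14), Emcn (-1.12) and Scn4b (-1.26) were then called lower.

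Genes with few counts carry wide intervals, the strand setting limits overlapping genes, and the 2 organs were compared in whole tissue from 4 libraries each, whose dissection is not described.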
